A study of Drosophila melanogaster with 12 samples.

Results

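*whe* (what else) and *lcs* (la costa) are measured genes that lie next to each other on the X chromosome of *Drosophila melanogaster*. They were taken by gene symbol from a table of direct RNA sequencing abundances and make up 3 of its 30738 isoforms and 2 of its 13962 genes with a gene identifier. Both genes were chosen because their isoforms were lower in tau transgenic *Drosophila* than in controls in these same libraries. Their tau and control values are therefore given as a description, without a test.

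Libraries were made from heads of flies aged to day 10 of adulthood, males and females in equal number. Controls were *elav-Gal4/+* and carry the pan-neuronal GAL4 driver alone. Tau flies were *elav-Gal4/+;UAS-tauR406W/+* and in addition express human tau with the R406W substitution in neurons, so that the driver is present in both genotypes. The study made 3 biological replicates of either genotype, with RNA of 500 pooled heads, and 6 short-read control libraries were not analysed here.

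In direct RNA sequencing, a polyadenylated RNA molecule is threaded through a protein pore from its 3’ end and read without a copying or amplification step. A read thus stands for a molecule, whatever the length of the transcript. Most genes have more than one site at which the RNA can be cut and polyadenylated, and the choice between these sites changes the length of the 3’ UTR. Neighbouring genes can share chromatin and regulatory elements. In male *Drosophila*, transcription of the single X chromosome is raised by the dosage compensation complex. Abundance was deposited as TPM, here the number of reads assigned to an isoform per 1000000 assigned reads, with no division by length. Between 573001 and 1329915 reads per library were assigned to isoforms, so that 3 reads were worth 2.26 to 5.24 TPM, the level under which an isoform could not be told from 0.

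In a principal component analysis, tau replicate 1 stood apart on the first component with a score of 63.5, against -22.3 to -2.35 in the other libraries. Control replicate 3 stood apart on the second, at 57.3 against -30.2 to 5.92. Values for *whe* and *lcs* are given below with and without these libraries. The labelled tissue was checked by markers. The photoreceptor opsin gene *ninaE* was at 22549 to 33183 TPM and the synaptic gene *nSyb* at 222 to 360 TPM in all libraries, whereas *elav* itself, which defines neurons, was at 0 to 2.63 TPM and under the level of 3 reads in every library. The human tau transgene was not analysed here.

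Both genes lie on the minus strand and have a single exon (Release 6 assembly, annotation of Ensembl). The isoform lcs-RA (FBtr0077220, gene FBgn0028583) runs from 21396727 to 21397316 on chromosome X and is 590 nt long, with a coding sequence for 145 residues, a 5’ UTR of 36 nt and a 3’ UTR of 116 nt. The gene *whe* (FBgn0031176) has 2 isoforms with a common start at 21402772 and a common coding sequence for 85 residues, from 21402463 to 21402717. The isoform whe-RA (FBtr0077219) ends at 21402381 and is 392 nt long. The isoform whe-RB (FBtr0346383) ends at 21402339 and is 434 nt long, so that both differ only in 42 nt at the 3’ end of the 3’ UTR, which is 79 nt in whe-RA and 121 nt in whe-RB. Between *lcs* and *whe* lie 5022 nt. These hold 1 annotated gene, the long noncoding RNA lncRNA:CR45500 on the same strand, which was not analysed here.

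The more abundant isoform of *whe*, whe-RA, had levels of 1266, 762 and 1052 TPM in control replicates 1, 2 and 3 and of 335, 413 and 281 TPM in tau replicates 1, 2 and 3. The lowest control value was 1.85 times the highest tau value. The means were 1027 ± 252 TPM and 343 ± 65.9 TPM (SD, n = 3 each), a log2 difference of -1.57 on the log2(TPM + 1) scale (standard error 0.185).

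The isoform with the longer 3’ UTR, whe-RB, reached 263, 229 and 379 TPM in controls, in the same order, and 130, 85.9 and 79.6 TPM in tau. The genotypes did not overlap, although the control library that was highest for whe-RA was not the one that was highest for whe-RB. The means were 290 ± 78.8 TPM and 98.4 ± 27.2 TPM (SD, n = 3 each), a log2 difference of -1.55 (standard error 0.223).

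The single isoform of *lcs*, lcs-RA, reached 469, 361 and 538 TPM in controls and 180, 160 and 142 TPM in tau. Here the lowest control value was 2.01 times the highest tau value. The means were 456 ± 89.2 TPM and 161 ± 18.6 TPM (SD, n = 3 each), a log2 difference of -1.48 (standard error 0.161).

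**Figure D1:**
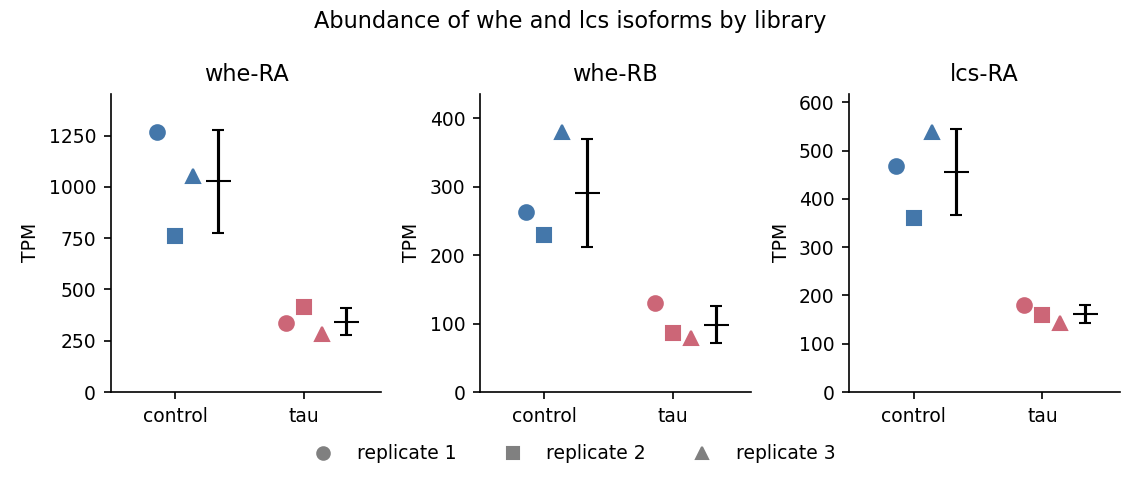
TPM (linear axes that start at 0) of the isoforms whe-RA, whe-RB and lcs-RA in 3 control and 3 tau libraries, with 1 point per library and the mean with its SD as black bars. In each of the panels all tau points lie under all control points, with tau means of 343, 98.4 and 161 TPM against control means of 1027, 290 and 456 TPM.

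All 3 isoforms thus had every tau value under every control value, which was the case for 6.89% of the 12800 isoforms that averaged 5 TPM or more, while 13.4% had no overlap in either direction. Their log2 differences were all at most -1, as for 2.68% of these isoforms. As the genes were chosen from this contrast, the counts are not read as evidence for it. In RNA from whole heads, fewer cells of a type and less RNA per cell cannot be told apart.

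Summed over isoforms, *whe* was at 1528, 991 and 1431 TPM in controls and at 465, 499 and 361 TPM in tau. Its means were 1317 ± 286 TPM and 441 ± 71.6 TPM (SD, n = 3 each), 2.98-fold lower in tau, with a log2 difference of -1.56 (standard error 0.165). For *lcs* the difference of the means was 2.83-fold. Among 8960 gene sums of 5 TPM or more, every tau value was under every control value in 6.93%, no overlap in either direction was seen in 13% and a log2 difference of -1 or less in 2.08%. By its mean level *whe* ranked 125 of 13962 genes in controls and 336 in tau, and *lcs* ranked 329 and 825. Of all assigned reads, the 2 genes together took up 0.177% ± 0.0365 in controls (SD, n = 3), compared with 0.0602% ± 0.00857 in tau (SD, n = 3). Of the 444 genes whose mean over all libraries was at least that of *lcs*, 6 had a log2 difference of -1 or less, and *whe* and *lcs* had the lowest values among them. Both genes were chosen for being lower in tau, so this rank is not read as evidence either.

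Leaving out the libraries that stood apart gave similar values. Without tau replicate 1, the log2 difference was -1.61 for *whe* and -1.57 for *lcs*, and without control replicate 3 it was -1.49 and -1.36. With both left out, an alternative added after seeing the data, it was -1.53 and -1.44. The lowest and highest values with any single library left out were -1.76 and -1.43 for *whe* and -1.64 and -1.36 for *lcs*.

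The TPM of *lcs* and the summed TPM of *whe* came to whole numbers of reads in every library, to within 0.01 of a read, so the reads behind them could be counted. For *lcs* they numbered 427, 274 and 308 in the control libraries and 123, 213 and 146 in the tau libraries. For *whe* they numbered 1392, 753 and 820 in controls and 318, 663 and 370 in tau. Counting error was at most 9.02% of the value for *lcs* (tau replicate 1) and 5.61% for *whe*. Control libraries varied more than this, with a coefficient of variation of 19.6% for *lcs* and 21.7% for *whe*. Reads assigned to whe-RA and whe-RB were not whole numbers, since NanoCount splits a read that fits both.

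The ratio of *whe* to *lcs* reads, neither of them divided by transcript length, was 3.26, 2.75 and 2.66 in the control libraries and 2.59, 3.11 and 2.53 in the tau libraries. Across the 6 libraries it ranged over 1.29-fold, while *whe* itself ranged over 4.23-fold and *lcs* over 3.77-fold. The mean ratio was 2.89 ± 0.323 in controls (SD, n = 3) and 2.74 ± 0.32 in tau (SD, n = 3), and the values of the genotypes overlapped. In each library the exact Clopper-Pearson interval (95%) of this ratio reached from at most 2.92 to at least 3.04, so that a single ratio between these values lies within the counting error of all 6 libraries. These intervals cover counting error only.

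**Figure D2:**
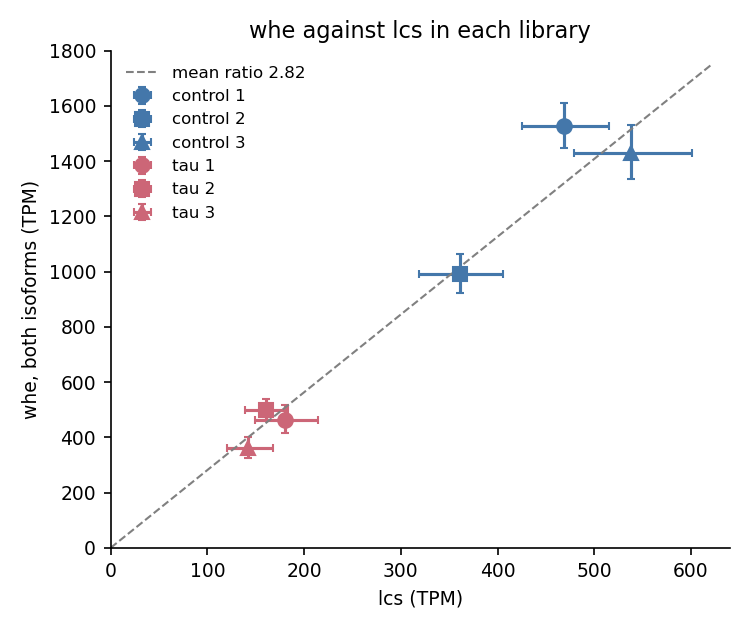
Summed TPM of *whe* against TPM of *lcs*, 1 point per library with 95% Poisson intervals from the read counts, and a dashed line at the mean ratio of 2.82. Control libraries lie at 361 to 538 TPM of *lcs* and tau libraries at 142 to 180 TPM, along the same line.

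The 2 genes also varied together within genotypes. After removal of the genotype means on the log2 scale, control replicate 2 was lowest for both genes, at -0.38 for *whe* and -0.32 for *lcs*, and among tau libraries replicate 3 was lowest for both, at -0.28 and -0.17. The order of the other libraries differed. Control replicate 1 was the highest control for *whe* (0.24) and control replicate 3 for *lcs* (0.26), and tau replicate 2 was the highest tau library for *whe* (0.19) and tau replicate 1 for *lcs* (0.17).

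Over the 6 libraries, Pearson r of these deviations was 0.84 between *whe* and *lcs*. It was 0.88 between whe-RB and lcs-RA, 0.66 between whe-RA and lcs-RA and 0.27 between the 2 isoforms of *whe*. All of these points share the libraries and their depth, and without control replicate 2 the r between *whe* and *lcs* was 0.53. Of the 4937 other genes with a mean of at least 20 TPM, *lcs* ranked 225 by its r with *whe*, and *whe* ranked 217 by its r with *lcs*.

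The genes most like *whe* by this measure over the 6 libraries were *CG4218* (r = 0.998), *Fic* (0.993), *CG42789* (0.987), *CG14292* (0.987) and *Drs* (0.986), the gene for the antifungal peptide drosomycin. For *lcs* they were *Urod* (0.999), which encodes a heme synthesis enzyme, *Pp4-19C* (0.998), a protein phosphatase gene, *EbpII* (0.994), which encodes an ejaculatory bulb protein, the seminal fluid gene *Acp53C14b* (0.988) and the ribosomal protein gene *RpS9* (0.988). Only *Pp4-19C* of these is on the X chromosome. None of the 10 had a log2 difference between genotypes of -1 or less. They are the highest of 4937 ranked genes over only 6 libraries, a choice that gives a high r by itself. In the same rankings the r of 0.84 between *whe* and *lcs* came only at ranks 225 and 217. Shared regulation was not tested. *Drs* rose in tau and had 314 ± 89.4 TPM in controls and 859 ± 129 TPM in tau (SD, n = 3 each), with a log2 difference of 1.48 (adjusted p = 0.00227 in limma).

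The isoforms of *whe* differ in their annotated 3’ end, and the share of whe-RB, the isoform that ends further downstream, was compared between genotypes. It was 17.2%, 23.1% and 26.5% of *whe* TPM in control replicates 1, 2 and 3 and 27.9%, 17.2% and 22.0% in tau replicates 1, 2 and 3. The means were 22.3% ± 4.7 and 22.4% ± 5.34 (SD, n = 3 each), a difference of 0.14 percentage points, and the genotypes overlapped. With any single library left out, the difference lay between -2.61 and 2.72 percentage points. The spread within either genotype was larger than the difference between them.

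Within genotypes the share also differed between libraries. Intervals for it were computed as if each *whe* read were assigned to 1 isoform. The exact Clopper-Pearson interval (95%) was 15.2% to 19.3% in control replicate 1 and 23.5% to 29.6% in control replicate 3. It was 14.4% to 20.3% in tau replicate 2 and 23.1% to 33.3% in tau replicate 1. These intervals leave out any error of NanoCount in assigning reads to isoforms that differ by 42 nt. They are too narrow by an unknown amount, as reads that fit both isoforms are split. Whether the share differed by more than counting error was therefore not tested. The libraries with the most assigned reads, 1329915, 1024721 and 910700, had shares of 17.2%, 22.0% and 17.2%, and those with the fewest, 759740, 684408 and 573001, had shares of 23.1%, 27.9% and 26.5%. The part of depth in this share was not tested.

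**Figure D3:**
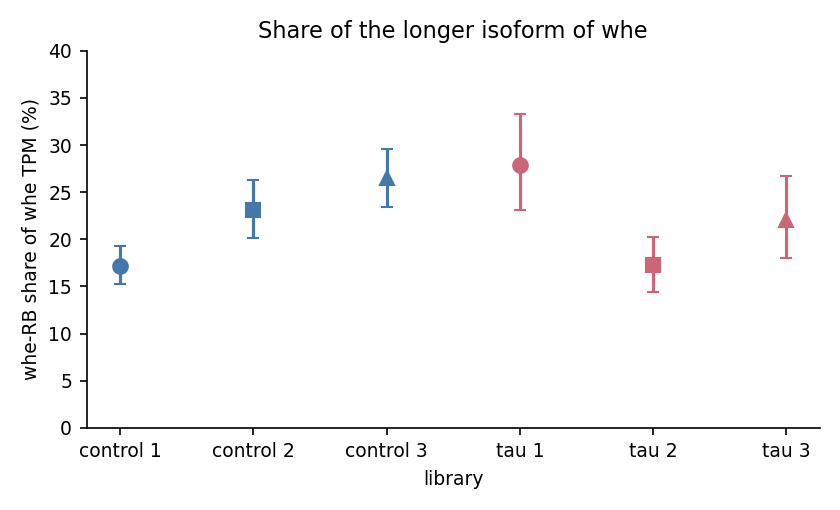
Share of whe-RB in the TPM of *whe* (percent, axis from 0), 1 point per library with its exact 95% counting interval, computed as if each *whe* read were assigned to 1 isoform. The shares lie between 17.2% and 27.9% in both genotypes, and control replicate 1 and tau replicate 2 are lowest.

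It was next asked whether genes around the pair differed between genotypes as well. Within 100 kb of *lcs* or *whe* the table holds 21 other genes, of which 18 had a mean of at least 5 TPM and were tested with limma on log2(TPM + 1). None of them passed an adjusted p of 0.05 (Benjamini-Hochberg over 8960 genes, of which 1.08% passed, 0.446% lower and 0.636% higher in tau). An unadjusted p under 0.05 (limma) was found for 1 of the 18, and for 730 of the 8960 genes. Log2 differences of the 18 ranged from -0.71 to 0.50, with a median of -0.11 against -0.04 over all tested genes. Of the 18, 11 were negative, against 4903 of the 8960.

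On the side of *lcs*, the nearest measured gene is *mst* (misato), 5193 nt away, with 6.87 ± 3.53 TPM in controls and 6.79 ± 5.86 TPM in tau (SD, n = 3 each). It is followed by *Ddx56*, an RNA helicase gene 8780 nt away, whose log2 difference was -0.12 (standard error 0.172, adjusted p = 0.957 in limma). The proline dehydrogenase gene *slgA*, 11567 nt away, was at 107 ± 6.31 TPM in controls and 89.4 ± 29.8 TPM in tau (SD, n = 3 each), with a log2 difference of -0.32 (adjusted p = 0.835 in limma). None of these neighbours reached the size of the difference in *lcs*.

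The largest difference in this window was that of *bbx* (bobby sox), which encodes an HMG-box protein. It lay between 23.7 and 34.7 TPM in controls and between 14.7 and 18.1 TPM in tau, without overlap. Its log2 difference of -0.71 (standard error 0.27) did not pass (adjusted p = 0.437 in limma). The gene *waw* has the same annotated span and strand, so that reads of *bbx* and *waw* may be split between them, and its log2 difference was -0.48. Also without overlap within 100 kb were *fliI*, lower in tau (log2 difference -0.58), and *Rpt6* and *CG1486*, higher in tau (0.27 and 0.41). None of them passed. Of all tested genes, 13% had no overlap in either direction.

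On the side of *whe*, the nearest measured gene is *DIP-beta*, a cell surface receptor gene of the immunoglobulin superfamily, 19342 nt away, with a log2 difference of 0.21 (standard error 0.549, adjusted p = 0.972 in limma) at a tau mean of 5.73 TPM. *CG10918* and the ionotropic receptor gene *Ir20a* were listed at 0 in every library. The next measured gene, the cytochrome P450 gene *Cyp6t1*, lies 114661 nt away. It was at 63.7, 93.5 and 90.8 TPM in controls and 61.4, 54.1 and 47.8 TPM in tau, without overlap, and its log2 difference of -0.58 did not pass (adjusted p = 0.383 in limma).

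**Figure D4:**
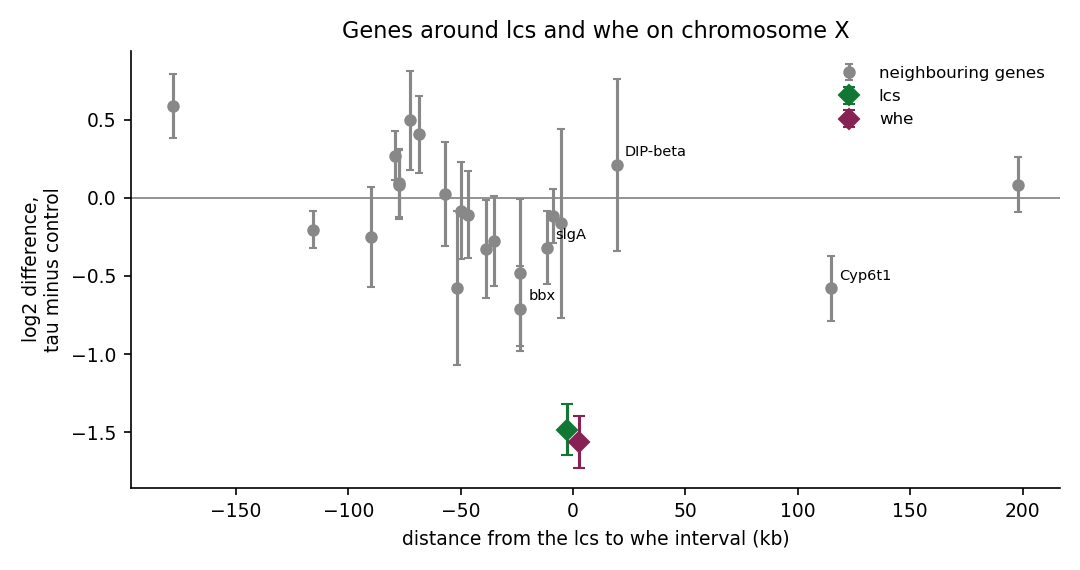
Log2 difference between tau and control (summed TPM + 1) with its standard error, against the distance in kb of each tested gene, out to 200 kb, from the interval that holds *lcs* and *whe*, which are drawn just left and right of 0. The pair lies at -1.48 and -1.56, and the tested neighbours within 100 kb lie between -0.71 and 0.50.

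Over the genome, 8871 pairs of tested genes lie next to each other on a chromosome and do not have identical values. In 18 of them both genes had a log2 difference of -1 or less, and in 15 both had a difference of 1 or more. This count was added after seeing the data and includes *lcs* and *whe*. Of the 18 pairs with lower values, *lcs* and *whe* were the only pair in which both genes had a control mean of at least 100 TPM, and also the only one at 50 TPM. These levels were set after values were seen, and the pair was chosen from this contrast. The count is therefore not read as evidence for the pair. The other lower pairs included the eggshell genes *Cp18*, *Cp15*, *Cp19* and *Cp16* and the maltase genes *Mal-A7* and *Mal-A8*, neighbours that are also paralogs. Of these, *Cp18*, *Cp19* and *Cp16* reached the filter of 5 TPM only through controls. The antimicrobial peptide genes *CecA1* and *CecA2*, and *DptA* and *DptB*, were among the pairs with higher values. The r of 0.84 between *lcs* and *whe* was reached or exceeded by 6.57% of all neighbouring pairs, whose median was 0.10.

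Few other genes of the X chromosome passed the test. Of 1385 tested X-linked genes other than *whe* and *lcs*, 2 were lower and 3 were higher in tau at an adjusted p of 0.05 or less (limma), 0.361% against 1.2% of 7527 autosomal genes, and these shares were not tested against each other. The median log2 difference was -0.05 on the X chromosome and -0.03 on the autosomes. The lower genes were *CG15043* (log2 difference -1.32, adjusted p = 0.0354 in limma) and *Cyp4g1* (-1.04, adjusted p = 0.0176), a cytochrome P450 of the oenocytes that makes cuticular hydrocarbons. The higher ones were *CG15784* (0.83), *CG9689* (1.11) and *CG32750* (2.61). These 5 names were chosen after their values were seen.

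As isoforms of *whe* and *lcs* are short, all isoforms of at most 600 nt were examined too. Of 788 such isoforms tested, 8 were lower and 28 were higher in tau (limma), 4.57% against 0.758% of all isoforms tested (0.266% lower and 0.492% higher), and their median log2 difference was 0.05. Their summed TPM was 167485 to 175645 in controls and 180003 to 194491 in tau, without overlap and in the opposite direction to *whe* and *lcs*. Genes whose protein has at most 150 residues included 6 lower and 36 higher of 1093 tested, 3.84% against 1.08% of all genes (0.446% lower and 0.636% higher), with a median log2 difference of 0.03.

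The summed markers of cell types overlapped between genotypes in each list that was measured, although some single markers did not. *ninaE* was higher in every tau library, at 22549 to 25227 TPM in controls and 27891 to 33183 TPM in tau (adjusted p = 0.071 in limma). The muscle genes *up* and *Tm2* were also higher without overlap. *Yp3* was lower, at 15226 to 19356 TPM and 10329 to 14311 TPM (adjusted p = 0.0875 in limma). Of all tested genes, 13% had no overlap in either direction. Summed over its list, the glial level was 920 to 1135 TPM in controls and 888 to 1257 TPM in tau (6 of 6 markers tested, 0 past the threshold). The fat body level was 2403 to 2867 TPM and 1918 to 2740 TPM (7 markers, of which 6 were tested and 0 passed), with *Fbp1* at 0 in 2 control and 2 tau libraries. The haemocyte level was 273 to 378 TPM and 303 to 403 TPM (6 of 7 tested, 0 passed), with *He* at 0 in 1 control and 1 tau library. The muscle level was 1297 to 1558 TPM and 1508 to 1975 TPM, with all 8 markers at a positive log2 difference and 0 past the threshold. The neuron level was 489 to 647 TPM and 395 to 656 TPM (7 of 8 tested, 0 passed). The photoreceptor level was 37721 to 42221 TPM and 42150 to 50159 TPM (10 of 10 tested, 0 passed). The female-specific yolk protein genes *Yp1*, *Yp2* and *Yp3* together were at 33860 to 42144 TPM in controls and 26743 to 36125 TPM in tau, which overlap (0 passed). The male-specific RNAs *roX1* and *roX2* were not analysed here.

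Of 34 tested genes for digestive enzymes, 4 were lower and 0 were higher in tau at an adjusted p of 0.05 or less (limma). Of all tested genes, 0.446% were lower and 0.636% higher. An unadjusted p under 0.05 (limma) was found for 18 of the 34, and for 730 of all 8960 tested genes. The digestive list was chosen after values were seen, so these counts were not tested as a property of the list. It holds the trypsin, Jonah protease, Mal-A maltase and amylase genes and *yip7*, which are known for the midgut. Its summed TPM was 7540, 4728 and 5702 in control replicates 1, 2 and 3 and 3924, 3965 and 2977 in tau replicates 1, 2 and 3. The genotypes did not overlap, and the log2 difference of the sum was -0.71. Of 34 genes with a mean of at least 5 TPM, 28 had a negative and 6 a positive log2 difference, with a median of -0.62 and a range from -1.29 (*betaTry*) to 1.32 (*gammaTry*, which did not pass). Over all 8960 tested genes, 4903 had a negative log2 difference and the median was -0.04.

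The trypsin gene *betaTry* had 643 ± 170 TPM in controls and 260 ± 53.6 TPM in tau (SD, n = 3 each) and fell, with a log2 difference of -1.29 (adjusted p = 0.00442 in limma). The protease gene *Jon65Aiii* had 753 ± 220 TPM in controls and 361 ± 36.9 TPM in tau (SD, n = 3 each) and fell, with a log2 difference of -1.02 (adjusted p = 0.0149 in limma). *Jon99Fi* (log2 difference -1.26, adjusted p = 0.0151 in limma) and *yip7* (-0.78, adjusted p = 0.041) fell as well. Other abundant members did not pass, among them *alphaTry* with a log2 difference of -0.46 (adjusted p = 0.574 in limma).

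After removal of the genotype means, r over the 6 libraries with the digestive sum was 0.91 for *whe* and 0.64 for *lcs*. Divided by the digestive sum, *whe* was at 0.203 to 0.251 in controls and 0.118 to 0.126 in tau. For *lcs* this ratio was 0.0622 to 0.0943 in controls and 0.0404 to 0.0479 in tau. Both genes were chosen for being lower in tau, so these ratios were not tested.

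Genes known for reproductive tissues outside the head were measured as well. The accessory gland peptide genes, which are active in the male reproductive tract, were picked by symbol, also after values were seen. This took in the cuticle protein gene *Acp65Aa*, at 3.29 TPM or less in every library. The listed genes summed to 2327, 1557 and 2382 TPM in controls and 3450, 2619 and 2175 TPM in tau. Their genotypes overlapped and the log2 difference of the sum was 0.40, opposite in sign to that of *whe* and *lcs*, while within genotypes r was 0.84 with *whe* and 0.94 with *lcs*. Of 17 tested genes 16 had a positive log2 difference and 1 passed, *Acp54A1*, which was higher in tau (limma). Over all 8960 tested genes, 0.636% passed as higher and 4903 had a negative log2 difference. The 17 genes share the same libraries, so their signs are not separate observations. Eggshell genes summed to 221, 284 and 33.2 TPM in controls and 5.84, 159 and 1.95 TPM in tau, which overlap. This list, too, was chosen after values were seen. The log2 difference of its sum was -3.13, of the same sign as that of *whe* and *lcs*. The sum in tau replicate 3 was, however, under the level of 3 reads in that library (2.93 TPM). Of 7 tested genes, 0 passed the threshold in limma. Some reached the filter only through controls, among them *Cp18*, *Cp19* and *Cp16*. Their means were 37.5, 20 and 16.1 TPM in controls and 2.89, 0 and 0.501 TPM in tau. A negative sign was thus fixed in advance for them, and signs are not counted. Within genotypes r was 0.23 with *whe* and -0.26 with *lcs*. The part of RNA from such tissues in the values of *whe* and *lcs* was not tested.

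**Figure D5:**
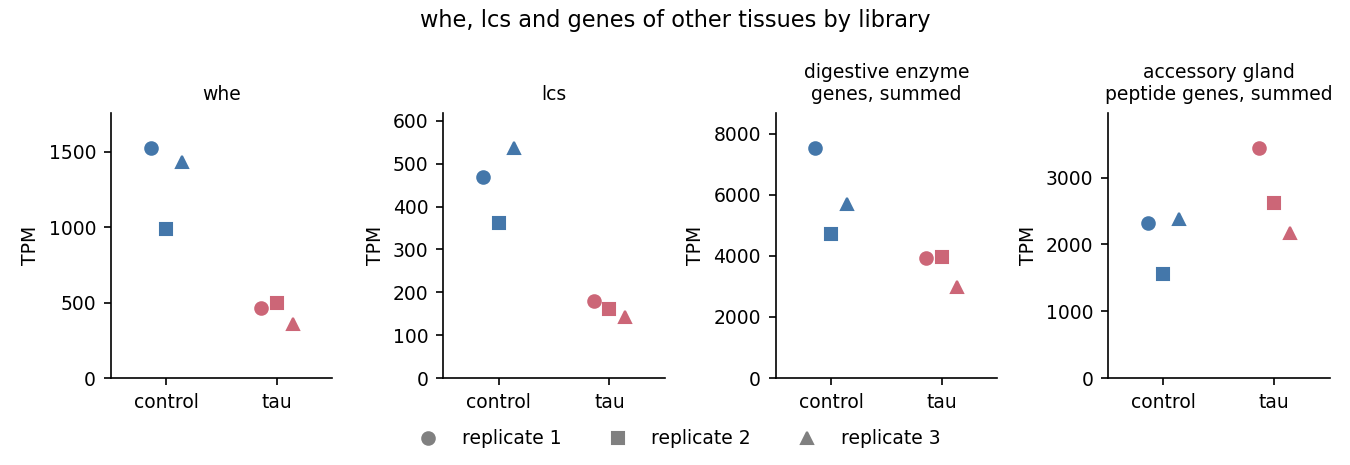
TPM (linear axes that start at 0) of *whe*, of *lcs*, of the summed digestive enzyme genes and of the summed accessory gland peptide genes in each library, with circles, squares and triangles for replicates 1, 2 and 3. The first 3 panels have all tau points under all control points, whereas the accessory gland sum overlaps, with 1557 to 2382 TPM in controls and 2175 to 3450 TPM in tau.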

How the data were processed

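Base calling by the authors used Guppy (v5.1.12) with a minimum quality of 9. Reads were mapped by minimap2 on FlyBase 6.43 transcripts, up to 10 secondary alignments being retained. The authors deposited NanoCount (v1.0.0) TPM values per isoform and library, which sum to 1000000. The authors' DESeq2 columns (fold changes and p-values) were not used. TPM is not counts, so limma (v3.58.1, R v4.3.3) was fitted on log2(TPM + 1) over all 12800 isoforms, or 8960 summed genes, with a mean of at least 5 TPM (eBayes with trend, two-sided, Benjamini-Hochberg, threshold 0.05, no covariate). Gene sums left out 37 isoforms without a gene identifier (0.051% to 0.0646% of TPM). The TPM of a single read was taken as the most frequent value above 0 in a library. Of the isoform values above 0, 47.2% to 50.7% were whole multiples of it (within 0.01 of a read), so no count test was run.

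Coordinates were read from an Ensembl annotation (Release 6 assembly) with 30718 of 30738 isoforms. Protein lengths were computed from its coding sequences, in place of the RefSeq proteins first planned. Named genes were all isoforms of *whe* and *lcs*, neighbours within 100 kb that passed or else the 4 nearest measured on each side, and the 5 genes most like each member. Names outside this rule, and the digestive, accessory gland and eggshell lists, were chosen after values were seen. The members and lists were chosen with earlier results of these data known. The fit was tested on simulated data. Alternatives were pseudocount, filter, scaling, trend, replicate block, window, length limit and each library left out. Other steps used pandas (v2.3.3) and scipy (v1.17.1) in Python (v3.11.15).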

Additional observations from a re-analysis of the deposited data

How the results depend on the processing

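All 55 alternative values for *whe*, *lcs* and their isoforms, from -1.77 to -1.34, moved by less than the spread of the replicates. They are not 55 separate checks. The replicate block cannot move a difference in this balanced design, *lcs* and lcs-RA hold the same TPM, and *whe* is the sum of its isoforms. The r between *whe* and *lcs* lay between 0.53 and 0.91 with a library left out, lowest without control replicate 2, and the difference in whe-RB share between -2.61 and 2.72 percentage points. Counts past the threshold depended on the filter and the trend. Without the filter, 0 isoforms (of 28413, with 1051 at an unadjusted p under 0.05 among the 12800 of the main test) and 42 genes passed, against 97 and 97, with 2 X-linked genes, 0 short isoforms and 19 genes for small proteins. Without the trend these were 5, 4, 1, 1 and 2. With a library left out, they were 25 to 100 isoforms, 29 to 105 genes, 1 to 7 X-linked genes, 8 to 31 short isoforms and 15 to 41 genes for small proteins, lowest without control replicate 3 in each case. Leaving out tau replicate 3 also lowered all 5 counts by over 1.5 times (29, 50, 3, 10 and 25), and leaving out tau replicate 1 or 2 lowered those of isoforms (40 and 55) and short isoforms (13 and 15). Scaling by median ratios left 23 short isoforms of 36. A limit of 400 nt gave 23 of 200 tested isoforms (11.5%, 7 lower and 16 higher). A limit of 1000 nt gave 61 of 2528 (2.41%, 15 lower and 46 higher). The limit of 600 nt gave 36 of 788 (4.57%), against 0.758% of all isoforms tested. In windows of 50 kb and 200 kb, and in every alternative, 0 neighbours passed. The cause of these shifts was not tested.

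Replicate numbers do not pair the libraries, as deviations of same-numbered libraries had r of 0.003, 0.042 and -0.054, and 0 of 6 libraries correlated best with their own number. With a replicate block, 77 genes passed. The log2 difference of *whe* and *lcs* cannot change with this block, as the design is balanced. Its standard error went from 0.165 to 0.171 for *whe* and from 0.162 to 0.17 for *lcs*. At this depth, counting error limits *lcs* to a precision of 4.84% to 9.02% per library.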
